A study of Homo sapiens with 12 samples.

Results

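The genes described here are 8 genes of the KEAP1-NRF2 oxidative defence pathway in H460 cells: KEAP1, NFE2L2 (which encodes NRF2), SLC7A11, TXNRD1, NQO1, GCLM, GCLC and SRXN1. The genes were chosen by name, with earlier results of these data known. A peak interval counted for a gene when it overlapped the gene's span (build hg19) by at least 1 bp on the same strand. Of 53502 intervals in 6 deposited peak lists, 39 met this rule. They lay in the spans of 7 of the 8 genes, and the span of GCLM held none.

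The series applied MeRIP-seq, which pulls down RNA fragments carrying N6-methyladenosine (m6A, methylated adenosine in mRNA) with an antibody and sequences them, along with input RNA that was not pulled down. Its 12 libraries form 4 groups of 3: immunoprecipitated (IP) and input libraries of H460 cells given 100 nM rapamycin for 24 h to induce autophagy, and IP and input libraries of H460 cells without treatment. H460 is a single human large cell lung cancer line, labelled wild-type, and the line is known to carry a mutation in KEAP1. The labels do not say whether replicates came from separate cultures. In GEO's record each of the 6 lists, here A to F, belongs to a library of untreated cells: input 1 for A, IP 1 for B, input 2 for C, IP 2 for D, input 3 for E and IP 3 for F. The lists' own names say con for A, B and C and rapamycin for D, E and F. Record and names both point to untreated cells for A, B and C, but they disagree for D, E and F. Because of this disagreement no list was given to a treatment, and the effect of rapamycin on these genes was not tested. Every value below belongs to 1 list, and no mean, SD or test over lists is given. List A held 12040 intervals, list B 14908, list C 12288, list D 4837, list E 4530 and list F 4899, and the sequencing depth behind them is unknown. A gene without an interval in a list may therefore lack the mark, lack the transcript or lie below what that list could detect, and these cases cannot be told apart.

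NRF2 is the transcription factor that switches on genes against oxidative and electrophilic stress. In unstressed cells KEAP1 binds NRF2 and hands it to a CUL3 ubiquitin ligase for degradation. Oxidants modify cysteines of KEAP1, NRF2 then accumulates, enters the nucleus and binds antioxidant response elements with small MAF proteins. The pathway meets autophagy at p62, an autophagy receptor that can bind KEAP1, and it is often active in lung cancers through mutations of KEAP1 or NFE2L2. In most mRNAs, m6A is known to be frequent in long internal exons, around the stop codon and in the last exon.

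Joined over lists, the 39 intervals formed 11 regions. SRXN1 and KEAP1 each had at least 1 interval in all 6 lists. NFE2L2 had one in 5 lists and so had the TXNRD1 span, while SLC7A11, NQO1 and GCLC each had a single interval in a single list. Of the 11 regions, 3 were held by all 6 lists, against 8.30% of the 20742 regions of the whole series, and 3 were held by 1 list, against 36.9% of all regions. The regions of these genes were wider than most, with a median of 686 bp (236 to 2294 bp), against 418 bp over the series. Among series regions of at least 236 bp, 11.1% recurred in all lists and 27.8% stood in a single list. With 11 regions in 7 genes, these shares are a description, and both SRXN1 regions are among the 3 held by all lists. The share of all genes with an interval in every list, in 1 list or in none is unknown here, since the lists hold no gene names. The genes had 9 intervals in list B, 8 in C, 7 in D and 5 each in A, E and F, with a median of 6.

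**Figure D1:**
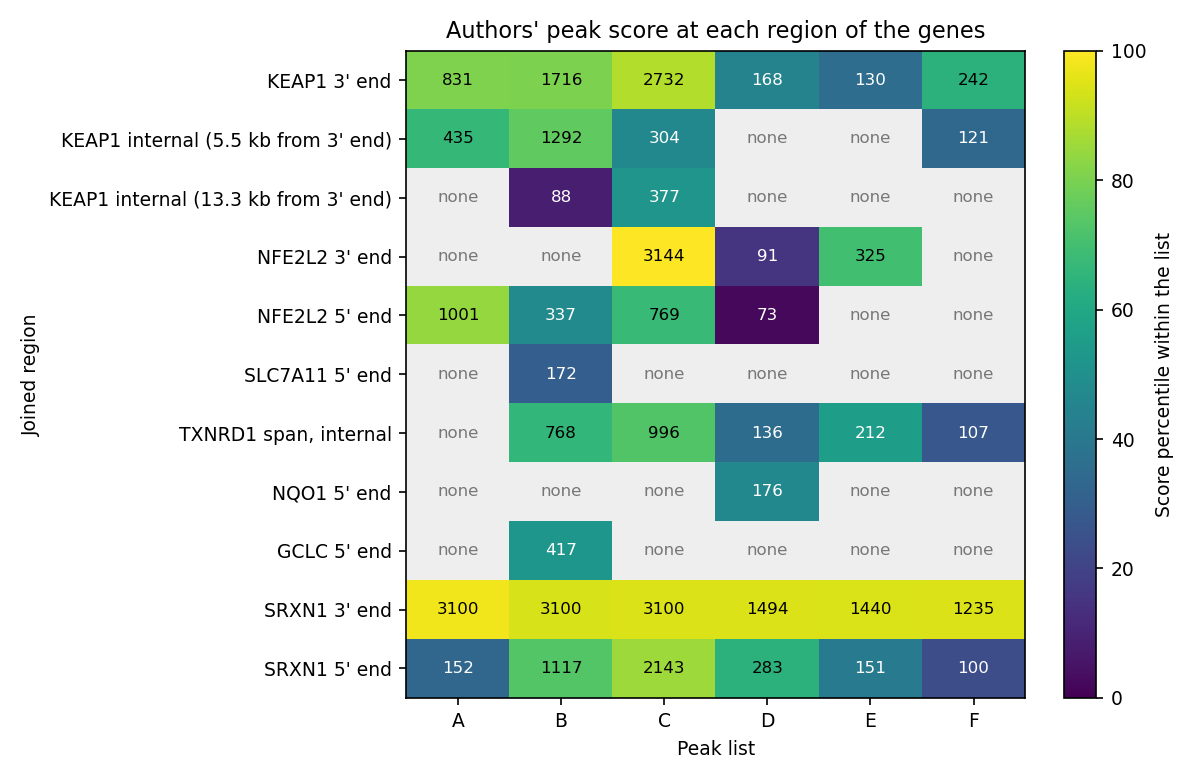
Authors' peak score (number in each cell) and its percentile within the list (colour) for the 11 joined regions of the genes (rows) in lists A to F (columns); grey cells marked none hold no interval. Both SRXN1 regions and the 3′ end of KEAP1 are filled in every list, and the SRXN1 3′ end is at the tied value 3100 in A, B and C.

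KEAP1, the repressor of the pathway (hg19 chr19:10596796-10614054, minus strand, 17259 bp), had 12 intervals in 3 regions. The region at the 3′ end of the gene span, chr19:10596796-10597494, was 699 bp wide with the same boundaries in all 6 lists. Its score, one value per peak from the authors' lists on a scale not given in the sources used here, was 2732.1 in list C, 1715.79 in list B, 830.59 in list A, 241.89 in list F, 168.12 in list D and 129.91 in list E. Because the scale is unknown, scores were ranked within a list and not read as peak strength across lists. Ranked within each list, where 100 is the highest score of the list, list A put it at percentile 80.7, list B at 80.4, list C at 88.5, list D at 44.8, list E at 35.6 and list F at 64.2. A percentile describes the place within 1 list: the lists differ in length and a longer one can hold more weak peaks below the same peak, so percentiles of different lists do not show a difference at a region.

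A second KEAP1 region, chr19:10602253-10602938, lay 5457 bp from the 3′ end and occurred in A, B, C and F. It scored 435.22 in A, 1291.66 in B, 303.97 in C and 120.6 in F. The third, chr19:10610071-10610756, lay 13275 bp from the 3′ end and was in B, with a score of 87.68, and in C, with 377.12. Both internal regions were 686 bp wide with the same boundaries wherever they occurred. Lists D and E held the 3′ end alone. KEAP1 regions covered 12.0% of the gene span in all.

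NFE2L2, the gene of NRF2 itself (chr2:178095031-178129859, minus strand, 34829 bp), had 7 intervals in 2 regions, which lay at opposite ends of the gene span. The 3′ region was chr2:178095031-178096736, 1706 bp wide, in C and D, and in E it was shortened to 1340 bp, with its 3′ boundary 366 bp inside the span. It scored 3143.86 in C, 90.98 in D and 324.53 in E. These are percentiles 99.7 in C, 14.9 in D and 69.5 in E, so the same place was near the top of one list, in the lower part of another, and not in A, B or F.

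The 5′ region of NFE2L2, chr2:178129260-178129859, was 600 bp wide in B, C and D and began at the 5′ end of the span. In A it was 384 bp wide and began 216 bp inside. Its score was 1000.86 in A, 337.04 in B, 768.8 in C and 72.83 in D. These are percentiles 84.0 in A, 47.8 in B, 67.6 in C and 1.96 in D. The lowest score of list D was 70.03. Lists A and B, the latter the longest, thus held the 5′ region of NFE2L2 without the 3′ region. E held the 3′ region without the 5′ region, and F held neither. C and D held both, but in D the 5′ region stood close to the lowest score of the list.

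**Figure D2:**
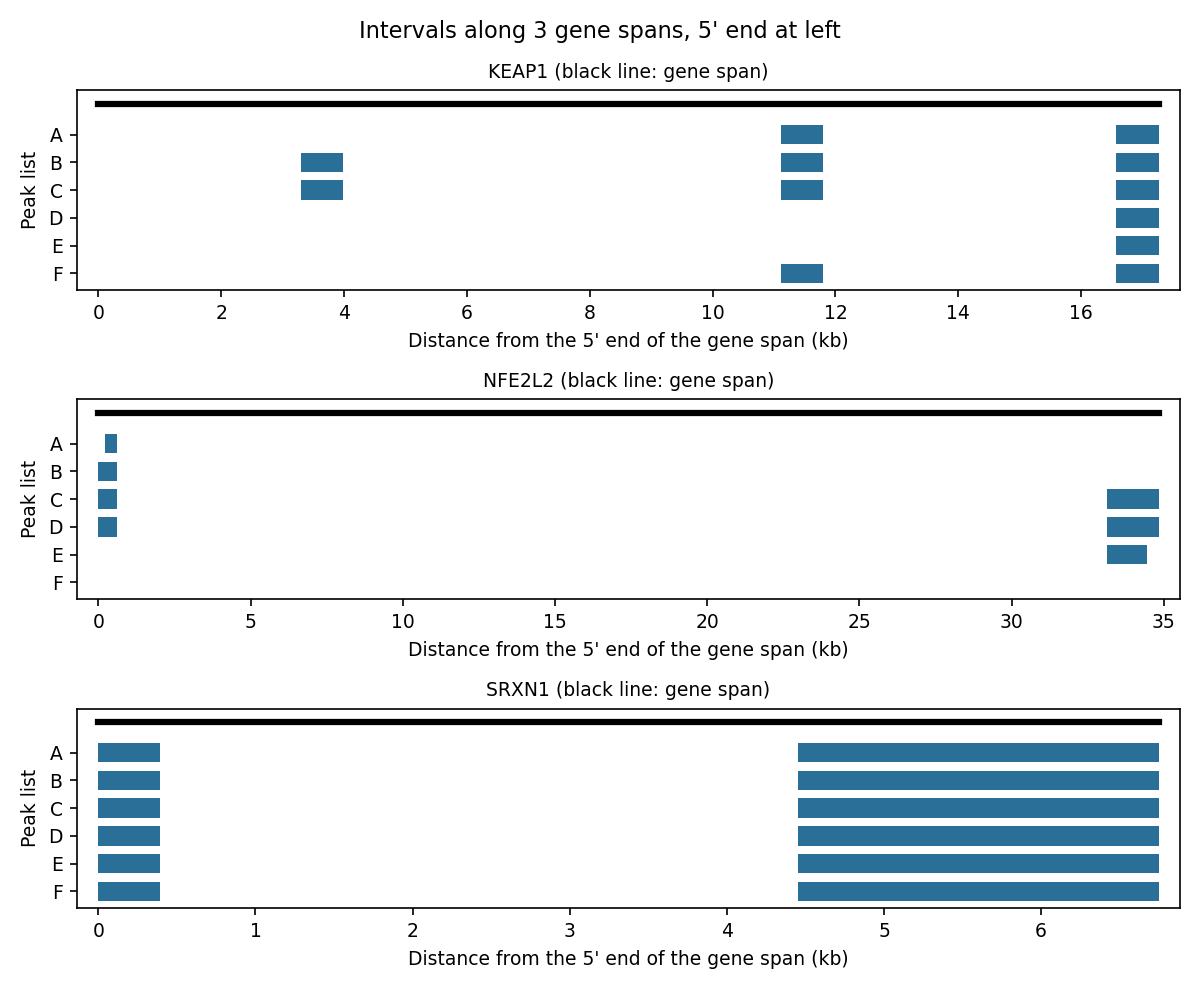
Intervals of lists A to F (bars, 1 row per list) along the spans of KEAP1, NFE2L2 and SRXN1 (black lines), plotted by distance from the 5′ end of the span in kb. SRXN1 has the same 2 intervals in all 6 lists, KEAP1 shares its 3′ end over all lists, and NFE2L2 has intervals at its ends alone, in 5 of 6 lists.

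The thioredoxin branch holds SRXN1 and TXNRD1. SRXN1 encodes sulfiredoxin, which repairs overoxidised peroxiredoxins. It was the shortest of the gene spans (chr20:627268-634014, minus strand, 6747 bp), and its 2 regions covered 39.9% of it. Both regions were in all 6 lists with unchanged boundaries, giving 12 intervals. The 3′ region, chr20:627268-629561, was 2294 bp wide and scored 3100 in A, B and C. List D scored it at 1494.05, list E at 1440.17 and list F at 1234.65.

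This SRXN1 3′ region stood at percentiles 94.5 to 94.9 in D, E and F. The value 3100 is one at which many scores pile up, so in A, B and C its percentiles of 93.9 to 98.0 are those of a block of tied scores and say nothing of a stable rank. At or above 3100 were 1 of 5 intervals of the genes in list A, where 3.74% of all intervals reached it, 1 of 9 in list B (11.8% of all) and 2 of 8 in list C (10.0% of all). None of the genes' intervals reached it in list D (1.47% of all), list E (1.57%) or list F (1.10%). The additional one in C was the 3′ end of NFE2L2.

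The 5′ region of SRXN1, chr20:633620-634014, was 395 bp wide and began at the 5′ end of the span. List A gave it a score of 152.25, list B 1116.92, list C 2142.65, list D 282.98, list E 150.68 and list F 100.44. Its percentile within the list lay between 23.5 (F) and 85.4 (C). In the RefSeq table of build GRCh38 an uncharacterised lncRNA, LOC107985423, overlaps the 248 bp at the 5′ end of SRXN1. That table gives no strand for it, and its share in this peak was not tested.

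TXNRD1 encodes cytosolic thioredoxin reductase, which uses NADPH to keep thioredoxin reduced. Its span (chr12:104609557-104744085, plus strand, 134529 bp) held a single region, chr12:104697510-104698982, in B, C, D, E and F. The interval was 1473 bp wide in C, D and E, 1354 bp in B and 1398 bp in F, with the same lower boundary in each. List B scored it at 767.78, list C at 996.49, list D at 135.65, list E at 212.31 and list F at 107.29.

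This region coincides with another gene, EID3, which lies wholly within the TXNRD1 span. In hg19 the region began 87953 bp from the 5′ end of the TXNRD1 span and ended 45103 bp from its 3′ end. In the GRCh38 table, where the TXNRD1 span has the same length of 134529 bp, EID3 is 1467 bp long, begins 87960 bp from the 5′ end and ends 45102 bp from the 3′ end. The boundaries thus matched within 7 bp, with distances measured within each build and no coordinates converted; the table gives no strand for EID3. The 5 intervals counted for TXNRD1 by position therefore cannot be assigned to TXNRD1 mRNA, and no other interval lay in its span. Without them, 34 intervals in 10 regions of 6 genes remained.

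The glutathione genes described here had 1 interval each or none. A single list is common over the series, where 36.9% of all regions were held by 1 list, so this is no result about the branch. SLC7A11, the cystine importer subunit xCT that supplies cysteine for glutathione (chr4:139085248-139163503, minus strand), had 1 interval, chr4:139162947-139163503, in list B. It was 557 bp wide, began at the 5′ end of the span and scored 171.68 (percentile 29.7). GCLC, the catalytic subunit of glutamate-cysteine ligase, which makes the first intermediate of glutathione (chr6:53362140-53409927, minus strand), also had 1 interval in list B. This interval, chr6:53409294-53409927, was 634 bp wide, began at the 5′ end and scored 416.8 (percentile 52.6). GCLM, the modifier subunit of the same enzyme (chr1:94352590-94374966, minus strand), had no interval in any list. The nearest interval on its strand lay 9172 bp beyond its 3′ end, in list A.

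NQO1, the quinone reductase that is widely used as a readout of NRF2 activity (chr16:69743304-69760533, minus strand), had 1 interval, in list D. This interval, chr16:69760336-69760571, was 236 bp wide and scored 175.61 (percentile 46.6). It ran 38 bp past the 5′ end of the span and was the only one of the 39 that left its span. The single intervals of SLC7A11, GCLC and NQO1 thus all lay at the 5′ end, and each was missing from 5 of 6 lists. List B, the source of the SLC7A11 and GCLC intervals, was the longest list, while list D, the source of the NQO1 interval, was among the shorter ones.

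**Figure D3:**
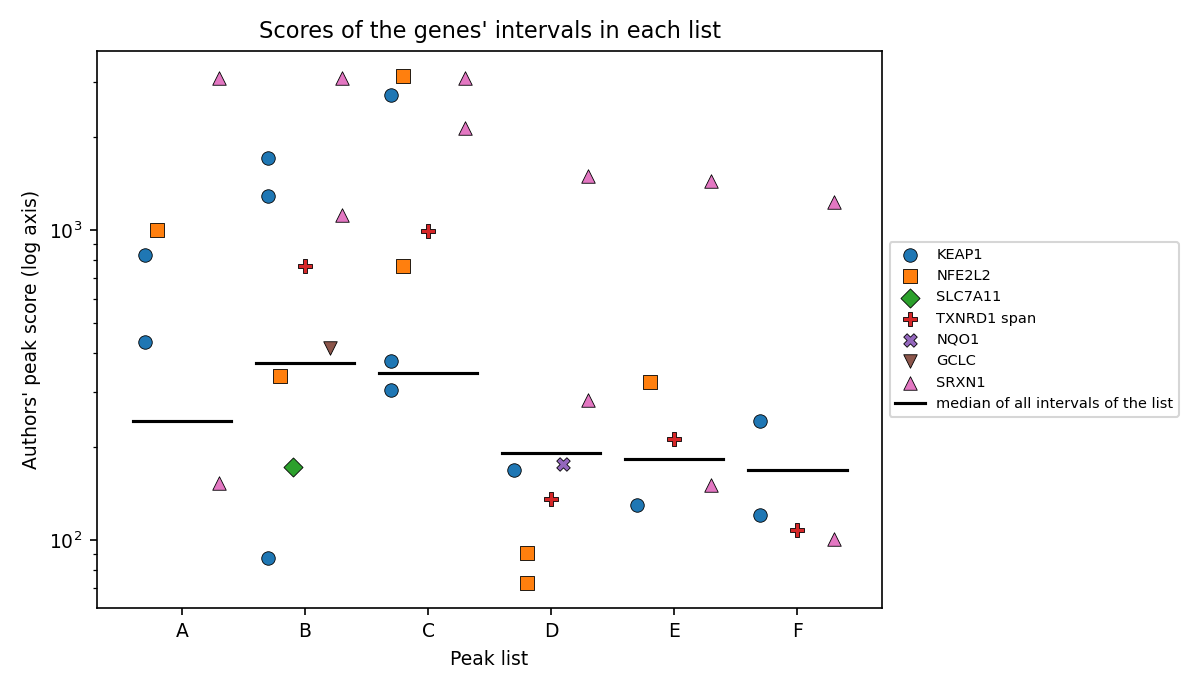
Authors' score of each interval of the genes (symbols by gene, log axis) in lists A to F, with the median score of all intervals of that list (black line). In C, 7 of 8 symbols stand above the line, in D 2 of 7, and the upper SRXN1 symbol, its 3′ end, is the highest of the genes in every list except C, where NFE2L2 is.

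Most intervals of these genes lay at an end of the gene span, counted once per list. The 2 regions of SRXN1 alone gave 12 intervals. The share of all intervals that reach a span end was not available, so these counts do not show that m6A gathers at transcript ends. Of the 39, 14 ended exactly at the 3′ end of the gene span, 11 began exactly at the 5′ end, 1 passed the 5′ end, and 13 did neither. The 3′ ends were those of KEAP1, NFE2L2 and SRXN1, and the 5′ ends those of NFE2L2, SLC7A11, GCLC and SRXN1. No interval lay on the other strand of any of the spans. Exon, intron and UTR positions were not analysed here, because the annotation used is of another build. Where intervals of different lists met in these genes, both boundaries were equal in 59 of 71 pairs (83.1%) and at least 1 in 71 of 71. Over the whole series both were equal in 61.8% of 69677 pairs and at least 1 in 95.8%. A region held by more lists gives more pairs, and most of the 71 came from SRXN1 and KEAP1, whose boundaries never differed between lists. Boundaries did differ in both NFE2L2 regions and in the TXNRD1 span, whose pairs are also counted. The 83.1% is therefore not a trait of the genes as a set. Equal boundaries came with unequal scores in these genes, leaving aside the value 3100.

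Relative to their lists, the genes' intervals stood on both sides of the median score. Above the median score of the list were 7 of 8 intervals in list C, 4 of 5 in list A, 6 of 9 in list B, 3 of 5 in list E, 2 of 5 in list F and 2 of 7 in list D. Their median percentile within the list was 33.5 in list F, 44.8 in D, 55.8 in E, 66.3 in B, 79.1 in C and 80.7 in A. In lists B to F, both the count and the median include the interval in the TXNRD1 span, which coincides with EID3. List A has no interval there. In B and E the median is the percentile of that very interval, so these values do not describe the pathway genes alone.

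NRF2 target genes are linked by the antioxidant response element, whose core is written here as TGACNNNGC, or GCNNNGTCA on the other strand. The 250 bases before each RefSeq gene start were searched for it on both strands in the promoter table of build GRCh38.p14, which holds 10 windows for 7 of the genes. A match was present in 4 of the 10 windows, in KEAP1, TXNRD1 and GCLM, against 10.9% of all 35116 windows. Both TXNRD1 windows are among them. By gene, 3 of 7 had a match, against 3609 of all 27305 genes. SLC7A11 is the gene without a window. The other KEAP1 window and those of NFE2L2, NQO1, GCLC and SRXN1 had no match, which says only that these letters are not in the stretch searched. The last 110 bases before the gene start are shown 5′ to 3′ on the gene's strand, matches in capitals, for KEAP1, TXNRD1 and GCLM. Windows without a match, and that of the other TXNRD1 start, are not shown. The stretches are KEAP1 chr19:10502772-10502881 (minus), TXNRD1 chr12:104286922-104287031 (plus) and GCLM chr1:93909431-93909540 (minus), all GRCh38.p14.
KEAP1: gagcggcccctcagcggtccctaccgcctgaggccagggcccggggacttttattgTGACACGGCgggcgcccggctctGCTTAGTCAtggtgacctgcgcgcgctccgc
TXNRD1: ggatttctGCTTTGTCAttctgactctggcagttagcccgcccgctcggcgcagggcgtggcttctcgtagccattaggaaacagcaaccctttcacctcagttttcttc
GCLM: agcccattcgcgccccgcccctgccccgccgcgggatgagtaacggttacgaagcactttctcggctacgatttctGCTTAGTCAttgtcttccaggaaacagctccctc
KEAP1 and GCLM share the letters GCTTAGTCA, 31 bases before the start in KEAP1 and 34 in GCLM. A match in DNA is a description of the sequence, and a link between matches and m6A intervals was not tested.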

How the data were processed

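The submitters' processing notes name build hg19 and the tool HISAT2 2.0.4. Peak names have the default form of MACS, per the file contents. The sources used here give neither the caller's settings nor the libraries behind each list. The authors' deposited score is 1 value per peak, used to describe and rank peaks within a list and to set a minimum in 1 alternative, and its lowest value was between 70 and 70.08 in every list.

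Intervals were written 1-based, matched to the 8 gene spans by at least 1 bp on the same strand, and joined over lists where they shared at least 1 bp. All 8 genes are named. Members and gene lists were chosen with earlier results of these data known. A preset list of other pathway genes was not analysed, since no hg19 annotation was at hand. RefSeq tables of GRCh38 gave gene names, within-build distances and promoter sequence only. Alternatives were strand ignored, intervals wholly inside the span, a minimum score, equal list length and reciprocal overlap. The TXNRD1 span was also left out, as was each list in turn. Work used Python 3.11.15, pandas 2.3.3, numpy 2.4.6 and matplotlib 3.10.9; the overlap code was tested on simulated data of 2000 intervals and recovered 15 of 15 known counts.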

Additional observations from a re-analysis of the deposited data

How the results depend on the processing

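As deposited, 2 genes had an interval in all lists, the genes had 11 regions, 3 of them in all lists, and the median over lists was 6 intervals. Of 46 values recomputed under alternatives, 43 stayed within 1.5 times of these. The other 3 came from a minimum score at the pooled median of 260.435, which removes low scored intervals by construction. With it, 1 gene (SRXN1) and 1 region were in all lists, and the median over lists was 3 intervals. The count of 43 is a poor measure of stability, since some values could not move. No interval lay on the other strand, and leaving a list out cannot lower the number of genes in all lists. The limit of 1.5 also passed a change from 2 to 3 genes and from 3 to 2 regions. With every list cut to its 4530 highest scored intervals, KEAP1 and SRXN1 remained in all lists, with 2 regions in all lists and 8 regions in any. SLC7A11 and GCLC then had no interval. With each list left out in turn, genes in all remaining lists numbered 2 to 3, regions 9 to 11, regions in all remaining lists 3 to 4, and the median over lists 5 to 7. The third gene was TXNRD1 (by position) without A and NFE2L2 without F. Without B, SLC7A11 and GCLC had no interval, and without D, NQO1 had none. Reciprocal overlap and leaving out the TXNRD1 span were in part added after the data were seen. No paired analysis was possible because record and list names disagree on the libraries. Depth is unknown, so missing intervals cannot be read as missing m6A.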
